A study of Mus musculus with 4 samples.

Results

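The miRNA miR-21a was followed in mouse pluripotent cells through its pair of mature products, mmu-miR-21a-5p and mmu-miR-21a-3p. Both were taken by name, as 2 of the 1907 mature miRNAs listed in a small RNA-seq table with 4 libraries. The cells were E14Tg2A, an established embryonic stem (ES) cell line of 129/Ola mice that grows on gelatin without feeder cells, and the epiblast-like aggregates (ELA) made from it. ES serum cells grew in 10% fetal calf serum with 1000 U/mL of LIF, the cytokine that holds mouse ES cells undifferentiated. ES 2iL cells had been moved to serum-free N2/B27 medium with the same LIF, 1 µM of the MEK inhibitor PD0325901 and 3 µM of the GSK3 inhibitor CHIR99021. ELA serum and ELA 2iL were each obtained from the ES cells of that name as floating aggregates after 2 days in a defined N2/B27 medium without serum, LIF or the inhibitors, so the medium in their name is that of the parent cells. Each group had 1 library, and the RNA of 3 sets of experiments had been pooled for it. No value below therefore has a replicate error, and the intervals given cover counting error only. The standard errors and p-values of the fits are drawn instead from 1 residual degree of freedom and from the other miRNAs.

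A miRNA hairpin is cut by Drosha and Dicer into a short duplex, of which usually 1 strand is loaded into Argonaute as the guide while the other is mostly degraded. For miR-21 the guide comes from the 5p arm, and it pairs with target mRNAs mainly through its seed, bases 2 to 8. miR-21 is known as one of the most abundant miRNAs of differentiated, proliferating and tumor cells, where it represses Pdcd4 and Sprouty mRNAs, and its transcription responds to STAT3, the effector of LIF, and to AP-1, which acts downstream of MEK and ERK. The comparisons asked how its level stood in ground-state (2iL) and serum ES cells and at the ES–ELA transition.

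The mature sequences show which RNAs were counted and how the guide could be told from its near copies. They are given 5′ to 3′ from RefSeq (GRCm38.p6), with the seed in capitals.
mmu-miR-21a-5p: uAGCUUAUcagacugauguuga
mmu-miR-21a-3p: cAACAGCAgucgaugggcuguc
mmu-miR-21b: uAGUUUAUcagacugauauuucc
mmu-miR-21c: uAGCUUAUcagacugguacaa
Both arms of miR-21a are 22 bases long. With positions counted from 1 at the 5′ end of mmu-miR-21a-5p, mmu-miR-21b differs by C4U, G18A, G21U and A22C and is 23 bases long, so its seed is another one. mmu-miR-21c is 21 bases long, shares the first 15 bases and the seed, and differs by A16G, G18A, U19C, U20A and G21A. Both copies were listed at 0 in all 4 libraries, where 3 reads equal 0.372 RPM in ES serum and 5.11 RPM in ELA 2iL. Some miRNAs typical of ES cells were also listed at 0, so these zeros do not show that the copies were absent. Of the 1907 listed miRNAs, 1623 had a RefSeq sequence, and mmu-miR-21c was the other miRNA with the 5p seed, while the 3p seed occurred in mmu-miR-21a-3p alone.

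On mm9, the build used for the deposited values, the hairpin matched chromosome 11, 86397569 to 86397660, on the minus strand. The 5p arm lies at 86397622 to 86397643 and the 3p arm at 86397584 to 86397605. Each arm matched the genome exactly at 1 place, so no second place in the genome held the same letters. GENCODE M1 places the whole hairpin in the last exon of Vmp1, a gene for a membrane protein of autophagy, on the same strand and inside the 3′ UTR (86397367 to 86398812).

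The libraries differed in depth, with 8056984 miRNA reads in ES serum, 4309257 in ELA serum, 2767016 in ES 2iL and 587363 in ELA 2iL. Values are RPM, reads per 1000000 reads assigned to the listed miRNAs, and so are shares of miRNA reads rather than amounts per cell. The miR-290/miR-295 cluster, typical of ES cells, summed to 86119 and 55535 RPM in serum (ES and ELA) and to 183326 and 140756 RPM in 2iL. The miR-302/miR-367 cluster of the primed epiblast summed to 5952 and 37319 RPM in serum against 78.4 and 7084 RPM in 2iL. The free-text description in the labels exchanges ES 2iL and ELA serum against the titles, source names and column names. The latter all give the same assignment, which is used throughout. Under the reading of the description the stage and medium contrasts below would trade places. The 37319 RPM of the miR-302/miR-367 cluster would then belong to ES 2iL and the 78.4 RPM to ELA serum, below the 5952 RPM of ES serum. The miR-290/miR-295 cluster would stand at 183326 RPM in ELA serum, above the 86119 RPM of ES serum.

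mmu-miR-21a-5p, the guide strand, was an abundant miRNA in all 4 libraries and was highest in ES serum. It measured 10971 RPM in ES serum (88397 reads, Wilson 95% interval 10900 to 11044 RPM) and 4648 RPM in ELA serum (20029 reads, 4584 to 4713). It measured 2742 RPM in ES 2iL (7588 reads, 2681 to 2805) and 2450 RPM in ELA 2iL (1439 reads, 2327 to 2580). Both serum libraries thus stood above both 2iL libraries, an arrangement that 14.6% of the expressed miRNAs showed. Expressed here means a mean log2(RPM + 1) of at least 5 over the 4 libraries, which both arms and 300 other miRNAs reached. In neither arm did both ELA libraries stand below both ES libraries, as they did in 19.9%. By level it was the 14th miRNA of 1034 with reads in ES serum, between mmu-miR-410-3p (12125 RPM) and mmu-miR-25-3p (8707 RPM). It was the 34th of 930 in ELA serum and the 47th in both ES 2iL (of 969) and ELA 2iL (of 691).

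mmu-miR-21a-3p, the passenger strand, was far less abundant and had its libraries in the same order. It measured 489 RPM in ES serum (3940 reads, Wilson 95% interval 474 to 505 RPM) and 199 RPM in ELA serum (859 reads, 186 to 213). In ES 2iL it measured 82.8 RPM (229 reads, 72.7 to 94.2) and in ELA 2iL 32.3 RPM (19 reads, 20.7 to 50.5). The lowest of these values rests on few reads. Its rank went from the 100th place in ES serum to 161 in ELA serum, 243 in ES 2iL and 314 in ELA 2iL.

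**Figure D1:**
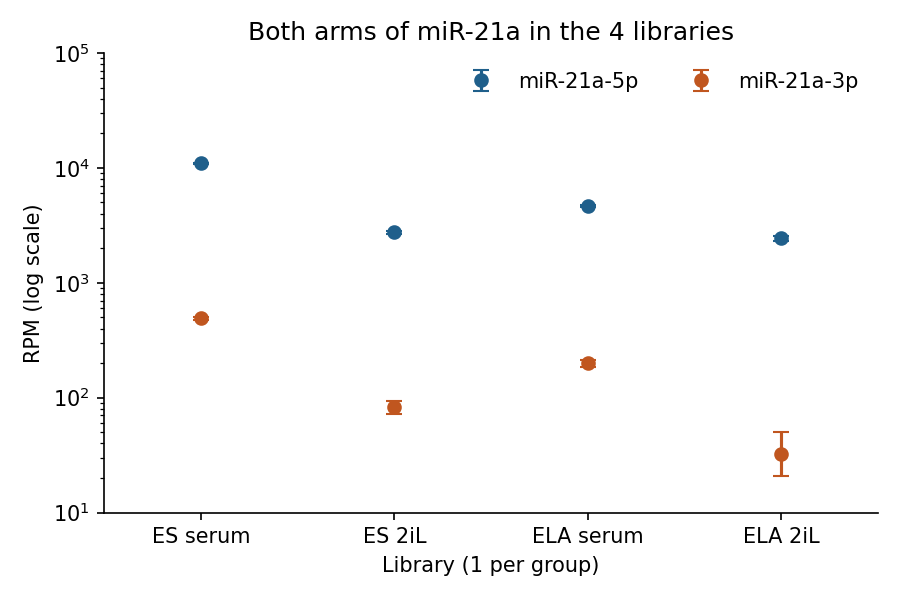
Levels of mmu-miR-21a-5p and mmu-miR-21a-3p in RPM (log axis) in the 4 libraries, 1 per group; bars are Wilson 95% intervals of the reads. Both arms are highest in ES serum (10971 and 489 RPM) and lowest in ELA 2iL (2450 and 32.3 RPM).

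Together the arms took 1.15% (ES) and 0.485% (ELA) of the miRNA reads in serum, and 0.283% and 0.248% in 2iL. The order from high to low, ES serum, ELA serum, ES 2iL and ELA 2iL, is also the order of library depth. The part of depth in it was not tested. The same order was seen in 9 expressed miRNAs (2.98%), both arms of miR-21a included. Under RPM both arms were lower in all 4 comparisons of a pair of libraries that share stage or medium, as were 4.97% of the expressed miRNAs.

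At the ES–ELA transition from serum cells, both arms were lower in ELA by nearly the same amount. mmu-miR-21a-5p was lower by 2.36-fold, a log2 difference of −1.24 (exact 95% counting interval −1.26 to −1.22). mmu-miR-21a-3p was lower by 2.45-fold, a log2 difference of −1.29 on log2(RPM + 1) and a counting interval of −1.40 to −1.19 on the ratio of RPM. Of the expressed miRNAs, 15.6% were lower by at least 1 in this pair of libraries, and the median miRNA stood at 0.00.

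From 2iL cells the arms parted. mmu-miR-21a-5p went from 2742 to 2450 RPM, a log2 difference of −0.16 (interval −0.24 to −0.08) beside a median of −0.17 for the expressed miRNAs. Its sign depended on the scaling, with 0.00066 under TMM, −0.05 under DESeq2 size factors and 0.08 with totals without the 5 most abundant miRNAs, so ES 2iL and ELA 2iL could not be ordered for the guide strand. mmu-miR-21a-3p was lower in ELA 2iL by 2.56-fold (log2 difference −1.33, interval on the ratio −2.11 to −0.68), where 23.5% of the expressed miRNAs were lower by at least 1. The stage difference of the guide was thus −1.24 in serum and −0.16 in 2iL. Whether it depends on medium was not tested, since 1 library a group leaves no error for that term.

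Between media, both arms were lower in 2iL at both stages. In ES cells mmu-miR-21a-5p was 4.0-fold lower in 2iL (log2 difference −2.0, interval −2.03 to −1.97) and mmu-miR-21a-3p 5.91-fold lower (log2 difference −2.55, interval on the ratio −2.76 to −2.37), where 17.5% of the expressed miRNAs were lower by at least 1. In ELA the guide was 1.90-fold lower (log2 difference −0.92, interval −1.0 to −0.85) and the passenger 6.16-fold lower (log2 difference −2.59, interval on the ratio −3.36 to −1.97), against 8.61% of the expressed miRNAs lower by at least 1. The medians of the expressed miRNAs lay on the other side of 0, at 0.44 in ES cells and 0.37 in ELA. Under the other 3 scalings the guide in ELA was lower by between 0.88 and 1.41 on the log2 scale.

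**Figure D2:**
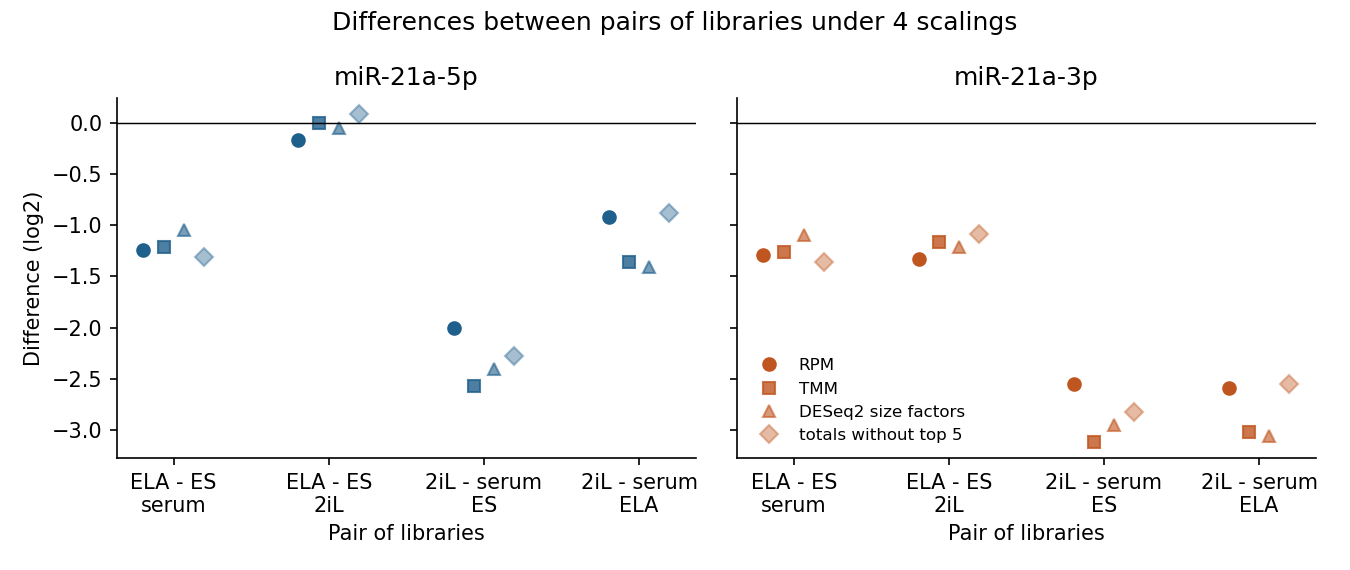
Log2 differences of each arm between the 4 pairs of libraries (ELA minus ES in serum and in 2iL, 2iL minus serum in ES and in ELA), under RPM, TMM, DESeq2 size factors and totals without the 5 most abundant miRNAs. Points other than those of mmu-miR-21a-5p for ELA minus ES in 2iL, which run from −0.16 to 0.08, lie below 0.

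Averaged over both media, the stage contrast (ELA minus ES) was −0.70 ± 0.50 for mmu-miR-21a-5p (log2, limma standard error) and −1.31 ± 0.44 for mmu-miR-21a-3p. The passenger therefore passed a difference of 1 and the guide did not, against 16.2% of the expressed miRNAs that were lower in ELA by at least 1. Each standard error is drawn from 1 residual degree of freedom and from the other miRNAs, so it is not a spread of the arm over replicates. Averaged over both stages, the medium contrast (2iL minus serum) was −1.46 ± 0.50 for the guide and −2.57 ± 0.44 for the passenger, where 13.2% of the expressed miRNAs were lower by at least 1. That share was 22.8% under TMM and 20.9% under DESeq2 size factors. The passenger arm was below all but 15 expressed miRNAs in this contrast and the guide below all but 25. The median expressed miRNA was shifted by 0.42 for medium under RPM, by −0.08 under TMM and by −0.02 under DESeq2 size factors. Relative to that median, the medium contrast of the guide was −1.88 under RPM and −1.89 under both, and that of the passenger −2.99 under all 3. These values hardly move by construction, since a scaling shifts a miRNA and the median alike.

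The test ran over 599 miRNAs that reached 10 reads in 2 or more libraries, and neither arm passed limma's test for stage or for medium. The Benjamini-Hochberg adjusted p-values from limma were 0.451 for stage and 0.146 for medium for mmu-miR-21a-5p, and 0.202 for stage and 0.0910 for medium for mmu-miR-21a-3p. limma called 0 of the 599 miRNAs for either term (0.0% lower), although 125 for stage and 176 for medium had an unadjusted p-value under 0.05. On the recovered reads, edgeR's quasi-likelihood test gave an adjusted p-value for medium of 0.0305 for the guide and 0.00181 for the passenger, and it called 7.01% of the miRNAs as lower in 2iL. DESeq2's Wald test gave adjusted p-values of 0.00897 and 3.66e-06 and called 8.01% as lower in 2iL. limma with DESeq2 size factors called 13.4% as lower in 2iL and limma with TMM 7.18%, with the passenger among them in both and the guide with the former. For stage, neither tool called an arm (adjusted p from 0.206 to 0.678), with 39 miRNAs called by edgeR (2.17% lower) and 50 by DESeq2 (2.67% lower). limma called 6.18% as lower in ELA with DESeq2 size factors and 1.67% with TMM, neither arm among them. The call for medium thus differed between tests and, with limma kept, between scalings, and each test draws its error from 1 residual degree of freedom and from the other miRNAs.

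**Figure D3:**
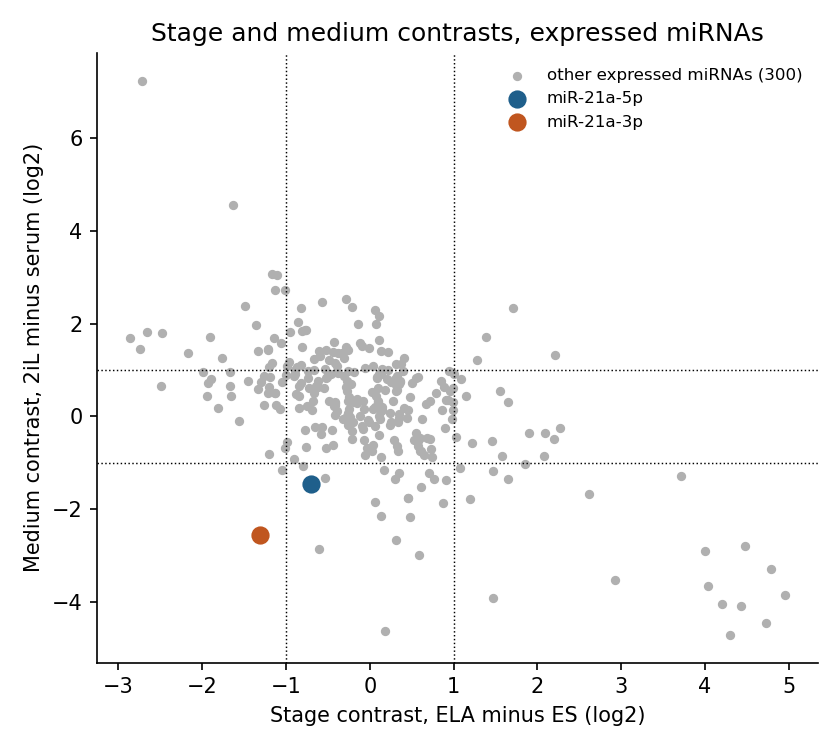
Stage contrast (ELA minus ES, horizontal) against medium contrast (2iL minus serum, vertical), both on log2(RPM + 1), for both arms and the 300 other expressed miRNAs; dotted lines mark differences of 1. mmu-miR-21a-3p (−1.31, −2.57) lies in the lower left corner, which holds 2 miRNAs, and mmu-miR-21a-5p (−0.70, −1.46) lies beside it.

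The passenger arm was 1 of 2 expressed miRNAs (0.662%) that were lower by at least 1 in both contrasts under RPM. The other was mmu-miR-28a-5p, with 383 and 132 RPM in serum (ES and ELA) and 122 and 81.7 RPM in 2iL. Under TMM and under DESeq2 size factors the second was mmu-miR-2137 instead, and with totals without the 5 most abundant miRNAs mmu-miR-21a-3p was alone. Both names were read off after their values were seen.

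The use of the arms differed between media more than between stages in serum. Reads of mmu-miR-21a-5p outnumbered those of mmu-miR-21a-3p 22.4-fold in ES serum (exact 95% interval 21.7 to 23.2) and 23.3-fold in ELA serum (21.8 to 25). The log2 shift between them was 0.06, with an exact interval of −0.05 to 0.17 that includes 0. In ES 2iL the ratio was 33.1 (29.1 to 38.0) and in ELA 2iL 75.7 (48.3 to 126), a shift between stages of 1.19 (0.51 to 1.96). The passenger strand made up 4.27% (ES) and 4.11% (ELA) of the miR-21a reads in serum, and 2.93% and 1.30% in 2iL. The ratio does not depend on the scaling of the libraries, since both arms are read in the same one.

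The shift toward the guide in 2iL was 0.56 in ES cells (log2, exact interval 0.37 to 0.76) and 1.70 in ELA (1.04 to 2.44). Beside it stand 99 miRNAs, miR-21a included, with both arms listed and at least 10 reads of each arm in every library. Their median shift of the major over the minor arm between media was 0.03 in ES cells and −0.25 in ELA. The shift of miR-21a was exceeded by 31 of them in ES cells and by 3 in ELA. Arm ratios moved widely among these miRNAs, and 66 of the 99 had a range of at least 1 over the 4 libraries on the log2 scale. The ratio of miR-21a itself ranked above the middle in every library, with 33 (ES) and 32 (ELA) of the 99 more one-sided in serum, and 24 and 13 in 2iL.

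**Figure D4:**
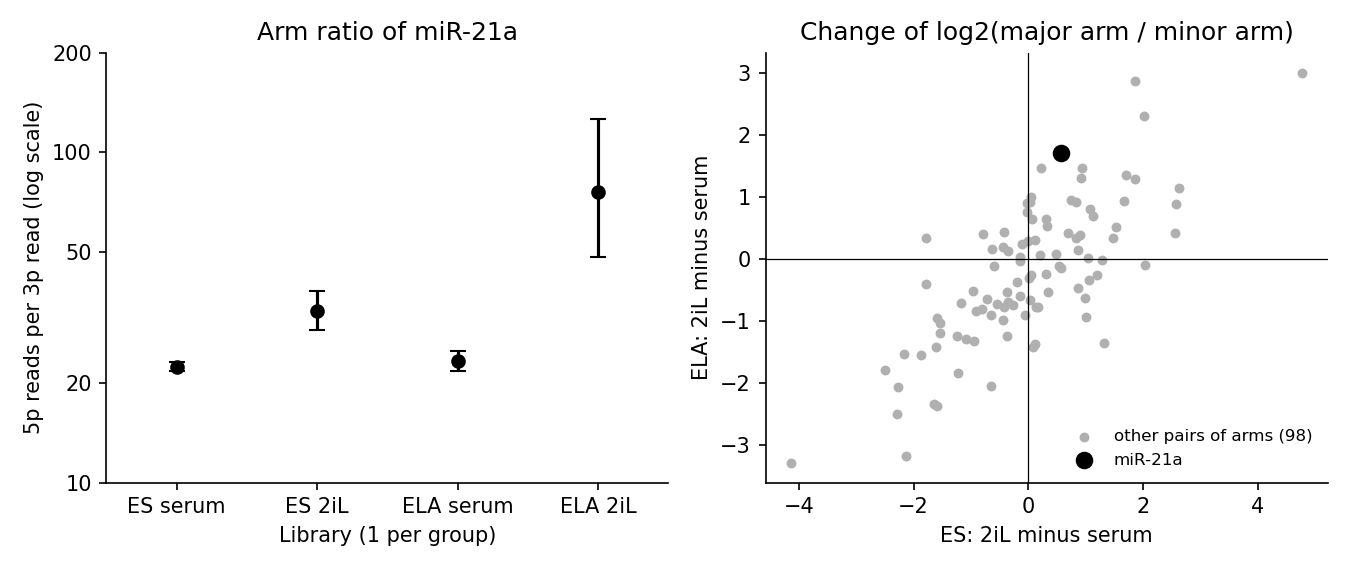
Left, reads of mmu-miR-21a-5p per read of mmu-miR-21a-3p (log axis) in each library, with exact 95% intervals; the ratio runs from 22.4 in ES serum to 75.7 in ELA 2iL. Right, change between media (2iL minus serum) of log2(major arm / minor arm) in ES cells and in ELA for 99 miRNAs; miR-21a (black) stands at 0.56 and 1.70.

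The miRNAs whose pattern over the 4 libraries was most like that of each arm were found from log2(RPM + 1) centred on its own mean, by the root mean square difference over 4 libraries. For mmu-miR-21a-5p they were mmu-miR-6539 (0.16 on the log2 scale), mmu-miR-28a-5p (0.23), mmu-miR-18a-3p of the miR-17/92 cluster (0.40), mmu-miR-674-3p (0.44) and mmu-miR-3057-5p (0.44), where the median of the 300 other expressed miRNAs was 1.20. mmu-miR-6539 followed the guide closely, with 1260 and 508 RPM in serum (ES and ELA) and 291.3 and 344 RPM in 2iL. The passenger arm was not among the nearest to its own guide, at 0.69, with 26 miRNAs nearer. For mmu-miR-21a-3p the nearest was mmu-miR-99b-5p (0.39), an abundant miRNA with 34737 and 21828 RPM in serum (ES and ELA) and 4557 and 3146 RPM in 2iL. It was followed by mmu-miR-28a-5p (0.76), mmu-miR-341-3p (0.78), mmu-miR-6539 (0.83) and mmu-miR-871-3p (0.83), against a median of 1.73. DESeq2 size factors gave the same 5 for each arm, which follows from the measure, since a scaling shifts all miRNAs of a library alike.

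**Figure D5:**
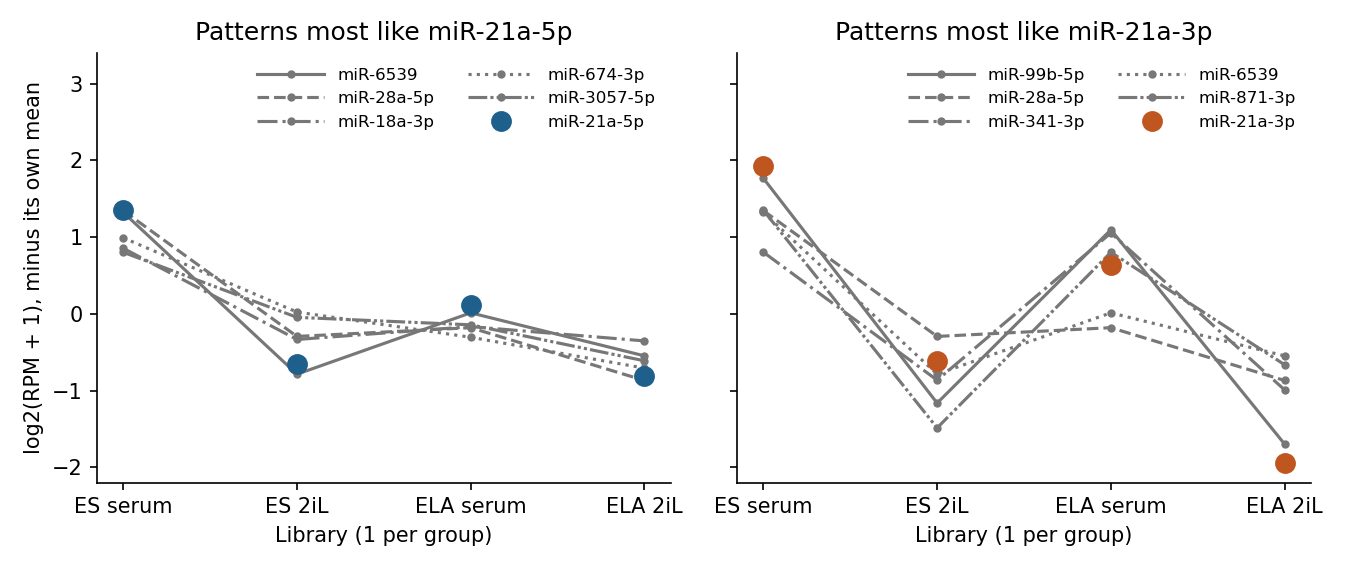
log2(RPM + 1) minus its mean over the 4 libraries for each arm of miR-21a (large points) and the 5 miRNAs with the most similar pattern (grey lines). Left, mmu-miR-21a-5p with mmu-miR-6539 nearest (root mean square difference 0.16); right, mmu-miR-21a-3p with mmu-miR-99b-5p nearest (0.39).

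miRNAs that share a regulator or a cell type with miR-21 in other settings were set beside it. Of 6 miRNAs linked to ERK or AP-1, 4 were expressed, and 1 was lower and 0 higher in 2iL by at least 1 under all 4 scalings, with a median of 0.14 under RPM, −0.37 under TMM and −0.30 under DESeq2 size factors. Of all expressed miRNAs 13.2% were lower and 23.8% higher under RPM, while 69 were lower and 33 higher under TMM and 63 and 38 under DESeq2 size factors, so 1 of 4 says little of the list. mmu-miR-222-3p measured 180 RPM in both ES libraries, 268 in ELA serum and 441 in ELA 2iL. mmu-miR-221-3p measured 128 and 136 RPM in serum (ES and ELA) and 111 and 313 RPM in 2iL, so both guides of this cluster were highest in ELA 2iL. The member lower in 2iL was mmu-miR-221-5p (medium contrast −1.36), with 24.6 RPM in ES 2iL and 176 to 216 RPM in the other libraries. For stage, 0 were lower and 1 higher by at least 1 under RPM (16.2% and 11.6% of all expressed miRNAs), with a median of 0.86, and 2 were higher under each of the other 3 scalings, where 44 to 50 of all expressed miRNAs were. The 2 members under the limit of expression had lower values in 2iL at either stage under RPM. mmu-miR-222-5p measured 38.7 and 40.4 RPM in serum (ES and ELA) and 10.5 and 15.3 RPM in 2iL, and mmu-miR-155-5p 38.7 and 13 RPM in serum and 22.4 and 6.81 RPM in 2iL. mmu-miR-31-5p, a member, is also among the fibroblast miRNAs below.

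Of 19 let-7 and other miRNAs that are typical of differentiated cells, 12 were expressed. In ELA 7 of them were lower and 0 higher by at least 1 (median −1.08), against 16.2% lower, 11.6% higher and a median of −0.08 for all expressed miRNAs, and 4 to 6 were lower under the other scalings, where 12.3% to 14.2% of all expressed miRNAs were. In 2iL 0 were lower and 6 higher by at least 1 (median 1.18 under RPM, 0.68 under TMM and 0.74 under DESeq2 size factors), against 13.2% lower, 23.8% higher and a median of 0.42 for all expressed miRNAs. Under TMM 4 of them were higher, where 33 of all expressed miRNAs were, under DESeq2 size factors 5 (38 of all), and 6 (62 of all) when the 5 most abundant miRNAs were left out of the totals. The most abundant, mmu-miR-22-3p, measured 6896 and 2369 RPM in serum (ES and ELA) and 15475 and 3265 RPM in 2iL. mmu-miR-125a-5p, a relative of lin-4 that is linked to differentiation, measured 900 and 328 RPM in serum and 2056 and 1292 RPM in 2iL.

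miR-21 is also abundant in fibroblasts. The 7 fibroblast and mesenchymal miRNAs summed to 3320 and 1614 RPM in serum (ES and ELA) and 4978 and 2130 RPM in 2iL, and most of each sum was mmu-miR-143-3p, with 3102 and 1451 RPM in serum and 4729 and 1886 RPM in 2iL. In ES 2iL it thus stood above mmu-miR-21a-5p (2742 RPM). mmu-miR-31-5p measured 156 and 136 RPM in serum (ES and ELA) and 130 and 145 RPM in 2iL. mmu-miR-199a-3p ranged from 15.3 to 44.1 RPM, mmu-miR-199a-5p from 5.11 to 23.8 RPM and mmu-miR-145a-5p from 4.18 to 60.4 RPM. mmu-miR-199b-5p measured 2.48 and 2.78 RPM in serum and 0.361 and 0 RPM in 2iL. mmu-miR-214-3p was listed at 0 in both serum libraries. Under RPM the sum was lower in ELA and higher in 2iL, while the median medium contrast of the 2 expressed members was 0.21 under RPM and −0.30 under TMM. The part of such cells in the level of miR-21a was not tested. The endothelial mmu-miR-126a-3p and the liver and serum mmu-miR-122-5p were listed at 0 in every library. The 2 neural miRNAs, mmu-miR-9-5p and mmu-miR-124-3p, summed to between 262 and 424 RPM, the 3 muscle miRNAs to between 0 and 73.2 RPM, and the 6 blood cell miRNAs to between 617 and 2193 RPM, with mmu-miR-142a-3p listed at 0 in every library and mmu-miR-142a-5p at up to 1999 RPM. The ES cell miRNAs miR-290a and miR-292a were listed at 0 for either arm as well, so a 0 in this table need not mean that a miRNA was absent.

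The guide of miR-21a holds the letters CAGAC at bases 9 to 13, part of an element through which SMAD proteins are described to promote the cutting of its hairpin. These letters were searched on the mature strand only and occurred in 26 of the 1623 listed miRNAs with a sequence (1.60%). Among expressed miRNAs with a sequence, 256 in number, mmu-miR-21a-5p was the 1 that held them, so no group of such miRNAs could be set beside it.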

How the data were processed

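Small RNA libraries (TruSeq, single reads on a MiSeq) were made from E14Tg2A ES cells and ELA. Per the study's methods and processing notes, the authors demultiplexed with CASAVA 1.8, trimmed adaptors with Trimmomatic, mapped to mm9 with Bowtie, assigned reads to miRBase release 20 with featureCounts and deposited RPM. Other versions and the treatment of reads with several places are not given in the sources used here. Each column summed to 1000000, and 0 sample columns were left out. All values were whole multiples (within 0.01) of the value of 1 read in their library, which gave back 587363 to 8056984 reads.

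Groups came from the source names. Contrasts and limma (3.58.1, terms stage and medium, 599 miRNAs, Benjamini-Hochberg, two-sided) used log2(RPM + 1), which understates differences of low miRNAs. The authors tested with edgeR. Here limma was set as the main test for the deposited unit, RPM, and edgeR, run on the recovered reads, as an alternative. The limits of 5 and 1 take their numbers from the study, which applied them to the ES–ELA comparison for lower miRNAs. Here they were applied to the mean log2(RPM + 1) over 4 libraries and to each difference in both directions. edgeR 4.0.16 (TMM) and DESeq2 1.42.0 on the recovered reads, other scalings, pseudocounts and filters were alternatives. The fitting code was also run on simulated reads, and no support for the results is drawn from that. R was 4.3.3, Python 3.11.15. Exact intervals are Clopper-Pearson for ratios and conditional for shifts of the arm ratio. Named miRNAs are both arms, their seed and name copies, their neighbors in level, the 5 nearest patterns and the most abundant list members. All members of the ERK or AP-1 list and of the fibroblast list are named. mmu-miR-28a-5p (as lower in both contrasts), mmu-miR-2137, the low fibroblast markers and the miRNAs listed at 0 were chosen after their values were seen. Members and lists were chosen with earlier results of these data known.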

Additional observations from a re-analysis of the deposited data

How the results depend on the processing

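No replicate block could be fitted, because the groups share 1 replicate number. The medium term of the limma fit already sets each ELA library beside that of its parent ES cells. The medium contrast of mmu-miR-21a-3p passed an adjusted p-value of 0.05 under TMM (−3.07), DESeq2 size factors (−3.01), totals without the 5 most abundant miRNAs (−2.69), a pseudocount of 5 RPM (−2.47), no filter (−2.57), edgeR (−3.01) and DESeq2 (−2.97). That of mmu-miR-21a-5p passed under DESeq2 size factors (−1.91), edgeR (−1.88) and DESeq2 (−1.84). With no filter the limma standard error was 0.570 for both arms, against 0.437 for the passenger and 0.502 for the guide in the main fit. That shared value was set by all the miRNAs together and not by either arm. The cause of the differing calls was not tested. With only the compared term, the limma adjusted p for medium was 0.399 for the guide and 0.290 for the passenger. The stage contrasts were past the threshold under none of the 10 settings tried. Leaving out 1 library gives the difference within 1 medium or stage, with no test. For the guide the stage contrast then ranged from −1.24 (without ES 2iL or ELA 2iL) to −0.16 (without ES serum or ELA serum), and the medium contrast from −2.0 (without either ELA library) to −0.92 (without either ES library). For the passenger they ranged from −1.33 to −1.29 and from −2.59 to −2.55.

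Under TMM, DESeq2 size factors and totals without the 5 most abundant miRNAs, in this order, the guide differed between ELA and ES by −1.21, −1.04 and −1.31 in serum and by 0.00066, −0.0471 and 0.0847 in 2iL, and between media by −2.57, −2.40 and −2.28 in ES cells. In ELA it differed between media by −1.36 and −1.41 under the first and second. The passenger differed by −1.10 in serum under DESeq2 size factors and between media in ES cells by −3.12, −2.95 and −2.83. The order of libraries held for the passenger under all scalings.

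The expressed miRNAs past a difference of 1 numbered 84 for stage and 112 for medium, against 255 and 288 with no filter on the mean, and leaving out 1 library gave 73 to 128 (without ES serum or ELA serum) and 93 to 146. The split was 49 lower and 35 higher for stage under RPM, 43 and 45 under TMM, 37 and 50 under DESeq2 size factors. For medium it was 40 and 72 under RPM, 69 and 33 under TMM, 63 and 38 under DESeq2 size factors. limma called 28 miRNAs for stage and 55 for medium under TMM, 84 and 112 under DESeq2 size factors, and 99 and 130 with no filter, edgeR called 39 and 64, and DESeq2 50 and 80. Depth limits mmu-miR-21a-3p in ELA 2iL, with 19 reads.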
